A study of Mus musculus with 960 samples.

Results

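The 10 genes described here are 5 transcription factors of the epithelial to mesenchymal transition (EMT), namely Snai1, Snai2, Twist1, Zeb1 and Zeb2, and the 5 microRNA genes of the miR-200 family, namely Mir200a, Mir200b, Mir429, Mir200c and Mir141. They were chosen by name, and the data on them are the accessible windows that lay in the gene or within 20 kb of its ends. Of the 50000 windows deposited for the series, 28 met this rule, 9 at the transcription factors and 19 at the microRNA genes.

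The series applied Pi-ATAC, which reads protein staining and transposase-accessible chromatin from the same fixed cell, to mammary tumours of MMTV-PyMT mice. In these mice the polyoma middle T oncogene is driven by the mouse mammary tumour virus promoter, which is active in mammary epithelium, and tumours were collected from mice of 3 months of age by the study's methods. The 960 wells held single cells sorted from the tumours. By the labels, the cells of 8 plates were stained for EpCAM together with HIF1α, and those of 2 plates for EpCAM together with CD45. EpCAM marks epithelium, CD45 marks leukocytes, and HIF1α is the hypoxia-inducible factor subunit that low oxygen stabilises. The paper reports more sorted cells for its HIF1α experiment than the labels give wells with that stain, and this difference is not resolved here. The deposited values were a single list of 500 bp windows called on pooled tumour cells, so they stood for 1 sample with no replicate. Its name points to the HIF1α experiment, whose isolated cells the paper describes as EpCAM+. By the study's methods cells were aggregated within a cell or tissue condition, but which labelled wells made up the aggregate is not spelled out. If only that experiment was pooled, the list describes EpCAM+ cells and not the whole tumour. The list held no score and no read count, the depth behind a window was unknown, and no level of HIF1α and no animal was named in the labels. No comparison between stains, wells or animals was therefore made. A gene without a window is a gene whose region was not among the 50000 windows kept, which is not the same as closed chromatin. By the study's methods, windows in most datasets were kept by lowest peak-calling q-value.

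EMT is the programme by which epithelial cells lose their junctions and polarity and gain migratory, mesenchymal features. Zeb and Snai proteins are zinc-finger repressors that bind the E-box CAGGTG in promoters of epithelial genes such as Cdh1 (E-cadherin), whereas Twist1 is a basic helix-loop-helix factor. The miR-200 microRNAs are expressed in epithelial cells and bind the 3′ untranslated regions (UTRs) of Zeb1 and Zeb2 messages, and Zeb proteins in turn repress the miR-200 genes, so that each side opposes the other.

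The miR-200 microRNAs fall into 2 groups by seed, the bases 2 to 8 that pair with a target. Their mature 3p sequences from RefSeq (GRCm38.p6) are shown because the seed decides which messages are matched in the target analysis that follows. Seed bases are in capitals.
miR-200b-3p: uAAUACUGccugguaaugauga
miR-200c-3p: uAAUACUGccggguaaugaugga
miR-429-3p: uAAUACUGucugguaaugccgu
miR-200a-3p: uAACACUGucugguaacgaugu
miR-141-3p: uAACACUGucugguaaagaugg
The first 3 shared the seed AAUACUG and the last 2 shared AACACUG, and the 2 seeds differed at 1 base. Over the first 22 positions, miR-200b and miR-200c differed at 2, as did miR-200a and miR-141. miR-429 differed from its seed partners miR-200b and miR-200c at 4 and 5, the same numbers as between seed groups. Each seed group drew on both genomic clusters, since Mir200b, Mir200a and Mir429 lie together on chromosome 4 and Mir200c and Mir141 on chromosome 6. The RefSeq hairpin of each of the 5 genes equalled the mm9 sequence at its annotated position.

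Start sites of epithelial marker genes had windows, in a list that may come from EpCAM+ cells only. All 6 epithelial markers (Epcam, Krt8, Krt18, Cdh1, Cldn7 and Esrp1) had a start-site window, meaning a window that came within 1 kb of an annotated transcript start, with 5 to 16 windows each within 20 kb, where 52.9% of all protein-coding genes had a start-site window. None of the 6 leukocyte, 6 endothelial or 6 myoepithelial markers had one, and of the 6 fibroblast markers Pdgfra had 3 and the others 0. Windows within 20 kb were found for 4 of 6 leukocyte, 3 of 6 endothelial, 6 of 6 myoepithelial and 2 of 6 fibroblast markers. The share of all protein-coding genes was 72.4%. Cd79a had 10, none of which overlapped the gene, Csf1r had 2 and Pecam1 had 7. Ptprc, the gene for CD45, had 0.

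Windows around the miR-200 genes outnumbered those around the EMT factors. Mir200c and Mir141 each had 11 windows in the hairpin or within 20 kb, Mir200a and Mir429 had 8 and Mir200b had 7. Among the factors, Snai1 had 5, Snai2 had 2, Zeb1 and Zeb2 had 1 each and Twist1 had 0. The 2 kinds of gene did not overlap in this count. Over all genes of the annotation (GENCODE M1, mm9), the median was 0 windows for the 1576 microRNA genes and 2 for the 22350 protein-coding genes. At least 1 window was found for 43.3% of all microRNA genes and 72.4% of all protein-coding genes, against 5 of 5 miR-200 genes and 4 of 5 factors. The 5 microRNA genes are not 5 independent observations, because genes of 1 cluster share most of their windows.

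**Figure D1:**
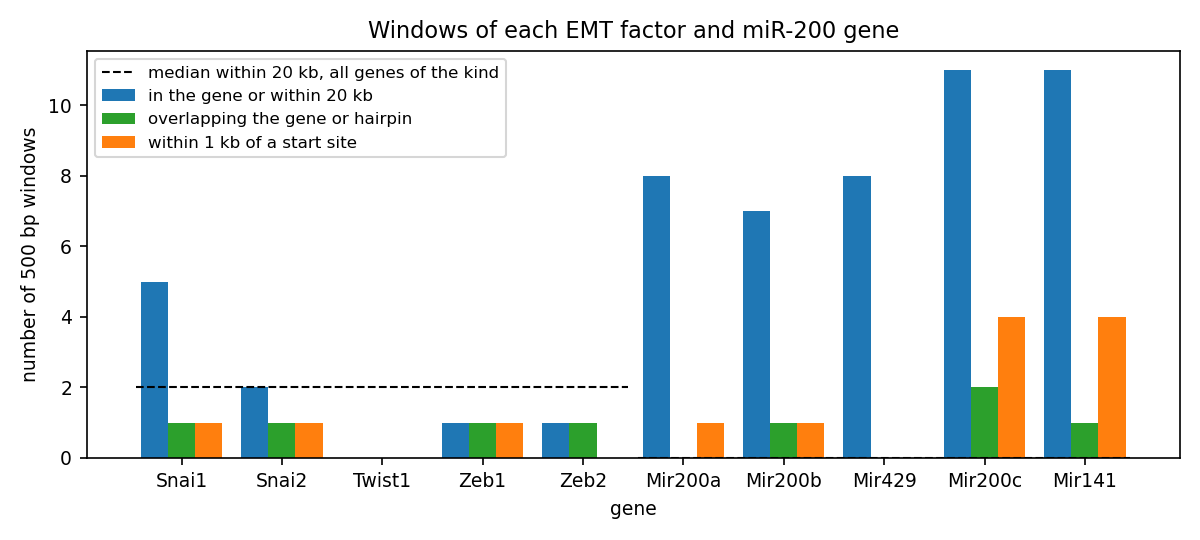
Number of 500 bp windows for each of the 10 genes, counted in the gene or within 20 kb (blue), overlapping the gene or hairpin (green) and at a start site (orange, at most 1 kb away). Dashed lines give the median within 20 kb over all protein-coding genes (2) and all microRNA genes (0); the microRNA genes reach 7 to 11 and the factors 0 to 5.

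In rank, Mir200c and Mir141 had more windows than 98.5% of all microRNA genes, and 0.952% had more. Mir200a and Mir429 exceeded 96.7% and Mir200b 95% of microRNA genes. Snai1 exceeded 73.7% of protein-coding genes, Snai2 40.3%, and Zeb1 and Zeb2 27.6%. Zeb1 and Zeb2 lay below the median of genes of their size. Zeb1 is 183608 bp long and Zeb2 133762 bp, and the 2399 protein-coding genes of 100 kb or more had a median of 4 windows, with 25.2% of them at 1 or 0.

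A start-site window was present for 7 of the 10 genes. For the factors this was 3 of 5 (60%, exact 95% interval 14.7 to 94.7%), Snai1, Snai2 and Zeb1, against 52.9% of all protein-coding genes. For the microRNA genes, where the start was taken as the 5′ end of the hairpin, it was 4 of 5 (80%, 28.4 to 99.5%), all but Mir429, against 9.84% of all microRNA genes. Intervals here and elsewhere are exact binomial (Clopper-Pearson), cover counting error only and treat genes as independent. The share of the factors was near that of protein-coding genes at large, while the 4 microRNA genes rested on 2 clusters.

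**Figure D2:**
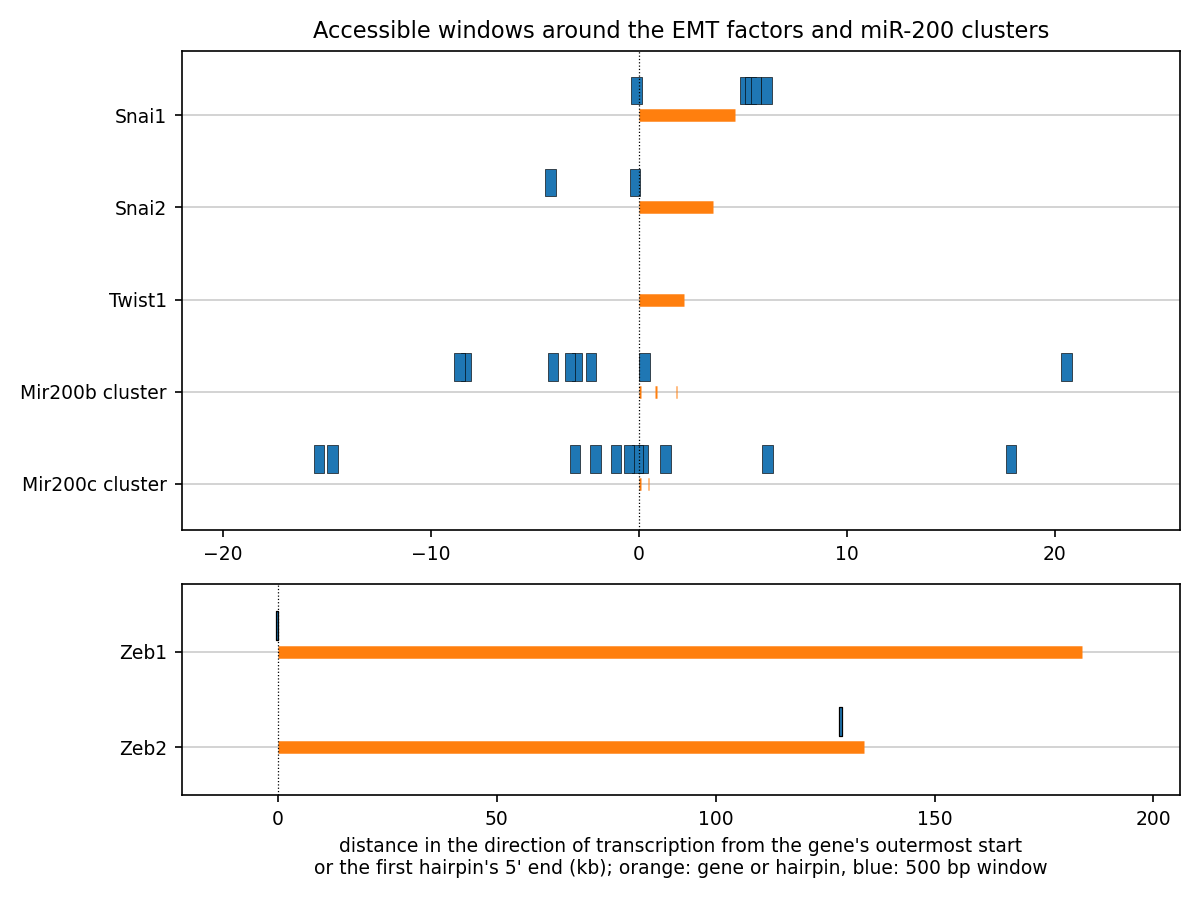
Positions of the 500 bp windows (blue) relative to the outermost start site of each factor or to the 5′ end of the first hairpin of each microRNA cluster, in the direction of transcription and in kb, with the gene or hairpins in orange. Snai1, Snai2 and Zeb1 each have 1 window at the start, 4 further Snai1 windows follow the gene, windows lie on both sides of the microRNA hairpins, and the Twist1 row is empty.

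At Snai1, which encodes a repressor of Cdh1, 1 window lay at the start and 4 lay just past the 3′ end of the gene. Snai1 spans chr2:167363695-167368314 on the plus strand. The start window was chr2:167363322-167363821, with its centre 0.123 kb upstream of the start site. Of the 4 intergenic windows downstream, 3 were summits of a single called peak, centred 5097, 5361 and 5615 bp from the start site, and the other at 6133 bp. They differed in base composition, since the start window held 50 CpG dinucleotides at 66.8% G+C and the downstream windows 6 to 10 at 57.6 to 61%. No start site of another protein-coding gene lay within 20 kb of Snai1.

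The start window of Snai1 held a single CAGGTG E-box on the minus strand, whose centre coincided with the window centre. It is shown here, chosen after its position was seen, as 60 bases of the plus strand (mm9, chr2:167363542-167363601) with the E-box in capitals as CACCTG, ending 0.121 kb before the start site.
Snai1: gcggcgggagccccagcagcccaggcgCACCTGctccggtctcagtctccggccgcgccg

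At Snai2, which encodes the Snail relative Slug, both windows were on the upstream side. Snai2 spans chr16:14705945-14709488 on the plus strand. The window chr16:14705497-14705996 was centred 0.198 kb upstream of the start, and chr16:14701436-14701935 was centred 4259 bp upstream in intergenic sequence. Neither held CAGGTG. The upstream window had 34.2% G+C and 4 CpG, the lowest G+C of the 28 windows, and the start window had 54.8% and 20.

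Zeb1 and Zeb2, paralogous repressors with zinc-finger clusters at both ends, each had 1 window but at opposite ends of the gene. The Zeb1 window, chr18:5591459-5591958, was centred 0.149 kb upstream of the outermost of 8 annotated starts (gene chr18:5591858-5775465, plus strand) and held 3 CAGGTG E-boxes, at 64.4% G+C with 38 CpG. It also lay in an intron of Gm10125, annotated as protein-coding on the minus strand. No other part of the 183608 bp gene held a window. The Zeb2 window, chr2:44844171-44844670, lay 121476 bp from the nearest of 10 annotated starts (gene chr2:44839154-44972915, minus strand), in the coding part of the last exon and 75 bp before the end of the coding sequence. It held 33 CpG at 57% G+C and no CAGGTG. No window was kept near any Zeb2 start.

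Twist1, a single-start gene at chr12:34642536-34644682 on the plus strand, had no window within 100 kb. Its nearest window centre was 414970 bp from the start. Within 100 kb, the other factors had 16 (Snai1), 3 (Snai2), 3 (Zeb1) and 2 (Zeb2) windows, and the Mir200b and Mir200c clusters had 21 and 36.

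Twist1 and Zeb2 had CpG-rich starts without a window. In the 500 bp around the outermost start, Twist1 had 71.8% G+C and 54 CpG, and Zeb2 62% and 35, and all 5 factors counted as CpG-rich (at least 50% G+C and an observed to expected CpG ratio of at least 0.6). Among protein-coding genes with a CpG-rich start, 83.7% had a start-site window, against 24.8% of the others. Twist1 and Zeb2 were thus among the 1738 of 10654 CpG-rich genes (16.3%) without one.

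At the Mir200b cluster on chromosome 4 1 of the 8 windows lay on the first hairpin, 3 at the starts of its host transcripts and 4 away from start sites. The cluster runs from Mir200b (chr4:155429790-155429859) over Mir200a (chr4:155429005-155429094) to Mir429 (chr4:155428014-155428096) on the minus strand. The window chr4:155429345-155429844 overlapped the Mir200b hairpin, with its centre 0.264 kb past the hairpin's 5′ end, 0.501 kb before that of Mir200a and 1.499 kb before that of Mir429. All 3 hairpins lie inside Gm13648, a non-coding transcript, and Ttll10, which encodes a tubulin-modifying enzyme, both on the same strand. The 3 kept windows of a called peak came within 1 kb of the starts of both host genes. The outermost overlapped the Gm13648 start, and no window overlapped that of Ttll10. The outermost window was centred 98 bp upstream of the Gm13648 start and 4150 bp upstream of Mir200b, and the middle one 0.256 kb inside Ttll10.

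Of the 4 windows away from start sites, one lay in the host introns, centred 2325 bp upstream of Mir200b, and a pair from a single called peak lay 8330 and 8632 bp upstream in intergenic sequence. The last was in a coding exon of Ttll10, 18793 bp past the Mir429 5′ end, with 32 CpG at 63% G+C. The remaining 7 windows had 2 to 13 CpG.

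At the Mir200c cluster on chromosome 6 the 5 kept windows of a single called peak covered the Mir200c hairpin, part of the Mir141 hairpin and the start of the host transcript. Mir200c lies at chr6:124668340-124668408 and Mir141 at chr6:124667932-124668003, both on the minus strand and inside Gm15884, a non-coding transcript whose start is 0.441 kb upstream of Mir200c. The 5 window centres fell at 0.198 kb past the Mir200c 5′ end and at 0.07, 0.5, 1.104 and 2.104 kb before it. The third of them, chr6:124668658-124669157, was centred 59 bp upstream of the Gm15884 start. Of the 38400 called peaks in the list, 0.615% kept 5 or more windows. The strand of origin cannot be told from accessibility, so an open start region is not a measure of either host transcript.

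The cluster on chromosome 6 is gene-dense, and 5 of its 11 windows came within 1 kb of a start of another gene but of neither hairpin's 5′ end, 5 came that near to a hairpin's 5′ end and 1 to neither. The region within 20 kb held starts of 4 other protein-coding genes, against 1 for the chromosome 4 cluster. Windows lay at the start of Emg1 (0.034 kb), a ribosome assembly factor, near that of Lpcat3 (0.92 kb), a phospholipid acyltransferase, and at starts of Ptpn6, the phosphatase SHP-1, with 3 windows 0.022, 0.359 and 0.617 kb away. The part of these neighbours in the window count of Mir200c and Mir141 was not tested. A separate window, chr6:124666896-124667395, was centred 0.857 kb past the Mir141 5′ end.

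For each of the 5 microRNA genes at least 1 host transcript start had a window within 1 kb. Of the 100 microRNA genes that the annotation places inside a non-coding transcript on the same strand, 38% had a window at that transcript's start. Mir429, without a window within 1 kb of its own hairpin, had 3 within 1 kb of the Gm13648 start, 5815 bp upstream of it.

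**Figure D3:**
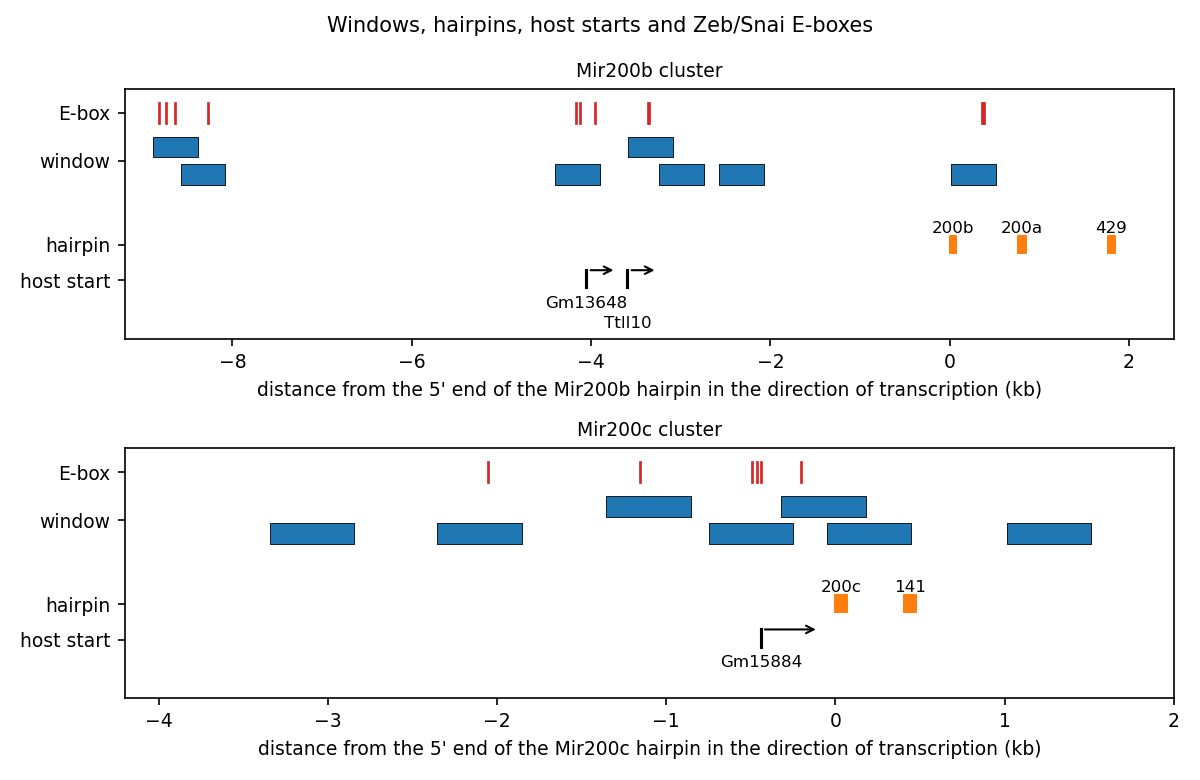
The 2 miR-200 clusters in kb from the 5′ end of Mir200b (top) and Mir200c (bottom), in the direction of transcription, with hairpins in orange, windows in blue at 2 heights where they overlap, starts of host transcripts as arrows and CAGGTG E-boxes inside windows as red ticks. The 13 E-boxes at the Mir200b cluster and the 6 at the Mir200c cluster are spread over several windows. Windows more than about 10 kb away on chromosome 4 or 4 kb on chromosome 6 lie outside the plot. So does 1 of the 13 E-boxes, in the Ttll10 coding exon.

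E-boxes of the Zeb and Snai type were found at both clusters and at Snai1 and Zeb1. CAGGTG on either strand occurred in 10 of the 19 microRNA windows and 3 of the 9 factor windows. Together this was 13 of 28 windows (46.4%, 27.5 to 66.1%), against 36.9% of all windows in the list. Restricted to the central 200 bp of each window it was 11 of 28 (39.3%, 21.5 to 59.4%), against 18.1% of all windows. The 13 windows held 24 sites, 16 of them within 100 bp of the window centre, and several of these windows overlap or adjoin in a single called peak. At the chromosome 4 cluster 6 of 8 windows held 13 sites, and at the chromosome 6 cluster 4 of 11 held 6.

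The 4 windows with an E-box nearest to the hairpins are shown because they bring the binding sequence of the Zeb and Snai repressors next to the microRNAs that match Zeb messages. Each is a stretch of 300 bases from mm9 on the minus strand, the strand of the hairpins, with every CAGGTG or its complement CACCTG in capitals.
Mir200c, chr6:124668328-124668627: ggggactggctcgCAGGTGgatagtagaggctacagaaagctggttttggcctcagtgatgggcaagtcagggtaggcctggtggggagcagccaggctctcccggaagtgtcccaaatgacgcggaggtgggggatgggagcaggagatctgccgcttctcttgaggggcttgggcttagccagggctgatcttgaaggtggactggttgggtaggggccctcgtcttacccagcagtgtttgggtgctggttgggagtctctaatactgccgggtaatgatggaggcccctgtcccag
Mir200b, chr4:155429445-155429744: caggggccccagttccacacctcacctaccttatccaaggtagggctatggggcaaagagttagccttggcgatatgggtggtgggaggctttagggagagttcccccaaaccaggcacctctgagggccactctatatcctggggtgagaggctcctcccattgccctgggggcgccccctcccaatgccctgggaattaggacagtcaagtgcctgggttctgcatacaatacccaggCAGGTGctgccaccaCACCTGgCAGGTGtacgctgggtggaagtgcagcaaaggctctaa
Mir200c, chr6:124668758-124669057: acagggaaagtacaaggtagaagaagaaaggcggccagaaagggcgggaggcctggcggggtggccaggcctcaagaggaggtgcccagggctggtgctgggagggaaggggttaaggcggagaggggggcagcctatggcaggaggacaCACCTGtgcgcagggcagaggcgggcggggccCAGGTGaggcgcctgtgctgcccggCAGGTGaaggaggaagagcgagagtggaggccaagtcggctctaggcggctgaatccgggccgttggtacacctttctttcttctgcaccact
Mir200c, chr6:124669362-124669661: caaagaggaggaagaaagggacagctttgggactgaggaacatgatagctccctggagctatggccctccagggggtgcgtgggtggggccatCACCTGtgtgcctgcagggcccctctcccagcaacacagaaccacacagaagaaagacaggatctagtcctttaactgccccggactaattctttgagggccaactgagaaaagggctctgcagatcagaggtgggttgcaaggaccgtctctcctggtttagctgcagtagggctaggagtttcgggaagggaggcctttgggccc
The first stretch holds the whole Mir200c hairpin near its 3′ end, and its E-box lies 0.201 kb upstream of the hairpin. The second holds 3 E-boxes close together, 0.36 to 0.382 kb past the Mir200b 5′ end and so between Mir200b and Mir200a. The third spans the Gm15884 start, with E-boxes 0.437, 0.462 and 0.494 kb upstream of Mir200c. The fourth holds 1, at 1.155 kb. A sequence match shows that the letters are there and not that a protein was bound.

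Other motifs were counted beside their share of all windows. The general E-box CANNTG, which includes CAGGTG, occurred in 25 of 28 windows (all windows, 89.1%). The AP-1 motif TGANTCA occurred in 3 (14.8%), the HIF core ACGTG in 6 (29.4%), GATAAG in 2 (9.02%), the Tead motif GGAATGT in 3 (7.14%), the ETS motif CCGGAAGT in 2 (3.14%) and the Grainyhead-like motif AACCGGTT in 0 (0.452%), each on either strand. Among the 6 windows with the HIF core, 2 were those of Snai2 and 4 were at the Mir200c cluster, where 2 Ptpn6 windows held 3 copies each. No window of Snai1, Zeb1, Zeb2 or the Mir200b cluster held it.

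The targets of the microRNAs were read from the reference alone. The base sequence that pairs with seed AAUACUG is CAGTATT, and that for AACACUG is CAGTGTT. After the last coding base of the transcript with the longest 3′ UTR (stop codon included, at least 100 bases), CAGTATT occurred in 12.9% and CAGTGTT in 17% of 18425 protein-coding genes. Zeb1 and Zeb2 each held 5 CAGTATT and 4 CAGTGTT, 9 in all, in 2404 and 4942 bases. Of the 18425 genes these were the 2 with the most matches, and 1 other gene reached 8. Among the 4208 genes with at least 2000 bases of 3′ UTR the median was 1.

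**Figure D4:**
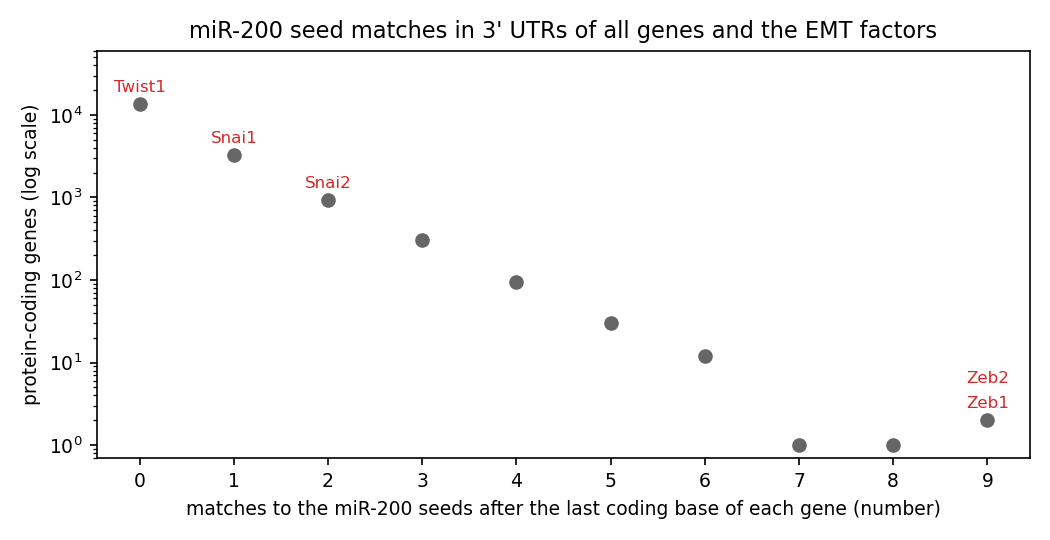
Number of protein-coding genes (log scale) by the number of matches to the 2 miR-200 seeds in the longest 3′ UTR, with the 5 EMT factors named at their counts. Zeb1 and Zeb2 sit at 9, the highest count among 18425 genes, Snai2 at 2, Snai1 at 1 and Twist1 at 0, which 13731 genes share.

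The other factors had few matches. Snai2 had 1 of each kind, Snai1 had 1 CAGTATT and Twist1 had none. In Zeb2, 8 of the 9 matches lay in the first 1200 bases after the coding sequence, and the accessible Zeb2 window ended 0.272 kb upstream of the first of them. All sites are shown, in the order of transcription, for the 3 factors other than Zeb1 that have any, with the seed match in capitals on the strand of the gene in mm9, so that they can be set against the microRNA sequences above.
Zeb2, chr2:44843877-44843898: gcaaaaattttgtaCAGTGTTa
Zeb2, chr2:44843693-44843714: gcactaccatacatCAGTATTt
Zeb2, chr2:44843628-44843649: gcactacagtgcatCAGTATTa
Zeb2, chr2:44843345-44843366: gtgccatccttgtaCAGTGTTc
Zeb2, chr2:44843304-44843325: ctttgcaccagcttCAGTGTTa
Zeb2, chr2:44843266-44843287: tgaagcacccgtgtCAGTATTa
Zeb2, chr2:44843181-44843202: ttcattaattttgtCAGTATTa
Zeb2, chr2:44843047-44843068: catactgtagtgtaCAGTATTa
Zeb2, chr2:44839923-44839944: catcagaaggactgCAGTGTTt
Snai2, chr16:14708387-14708407: tgagtggcgcaacCAGTGTTt
Snai2, chr16:14708802-14708823: ttcaaccaaaggaaCAGTATTt
Snai1, chr2:167367765-167367786: agcctcctacccctCAGTATTc
The sites of both seed groups were interspersed along Zeb2, so that each of the 5 microRNAs has matches among the first 8.

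Genes that act with or against these factors were described by lists, each read against the start-site share of all protein-coding genes (52.9%). That share was 83.7% for genes with a CpG-rich start and 24.8% for the others. The part of start composition in the list counts was not tested. The list of 15 epithelial genes that EMT factors repress had start-site windows at 15 (exact 95% interval 78.2 to 100%). It is not independent of the epithelial markers above, since Epcam, Krt8, Krt18, Cdh1 and Cldn7 are in both. Esrp1 recurs among the factors that oppose EMT factors, and markers such as Acta2 recur among the mesenchymal genes. Cdh1 had 3, and Crb3 (a polarity protein), Pkp3 (a desmosomal plakophilin) and Krt8 (a simple epithelial keratin) had 4 each. Of the 10 epithelial factors that oppose EMT factors 9 had them (90%, 55.5 to 99.7%), with 11 windows at Gata3, 7 at Ehf, 6 at Esrp2 and 5 at Esrp1, and Grhl3 alone had none. Gata3 and Ehf are luminal and epithelial transcription factors and the Esrp proteins direct epithelial splicing.

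Of the 14 mesenchymal genes 4 had a start-site window (28.6%, 8.39 to 58.1%, an interval that includes the share of all protein-coding genes), namely Cdh2 with 4, Vim with 2 and S100a4 and Itga5 with 1 each. Cdh2 encodes N-cadherin and Vim the intermediate filament vimentin. Cdh11, Fn1, Sparc and Acta2 were the first in the list without one. Cdh11 had its nearest window centre 798201 bp from a start, and Fn1 (fibronectin) had 2 windows in the gene, the nearest 55769 bp from a start. Within 20 kb, however, 11 of the 14 mesenchymal genes had at least 1 window, against 72.4% of all protein-coding genes. Their median was 2 windows, the same as for all protein-coding genes, with 9 at Mmp2 and 8 at S100a4.

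**Figure D5:**
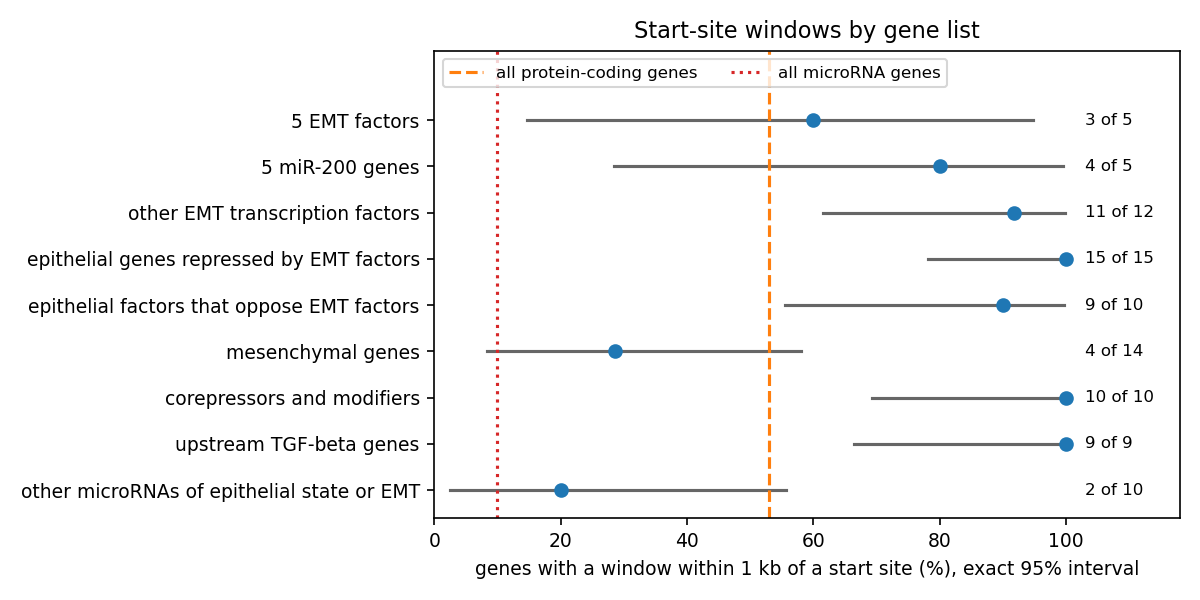
Percent of genes with a start-site window (at most 1 kb away) for the EMT factors, the miR-200 genes and 7 other lists, with exact 95% intervals as lines and counts at the right. Vertical lines mark all protein-coding genes (52.9%) and all microRNA genes (9.84%). Of the protein-coding lists, only the mesenchymal one lies left of the former line. The epithelial lists, the EMT factor lists, the corepressors and the TGF-beta genes lie right of it.

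Of 12 other EMT transcription factors 11 had a start-site window (91.7%, 61.5 to 99.8%), beside 3 of 5 for the factors described here, with 5 each at Tcf4 and Sox9 and 3 each at Tcf3 and Sox4. Tcf3 and Tcf4 encode E proteins, the dimer partners of Twist proteins. The exception was Twist2, the paralogue of Twist1, whose nearest window centre was 68777 bp from its start. Both Twist genes were therefore without a window within 20 kb.

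The corepressors and modifiers that Zeb and Snai proteins use had start-site windows at 10 of 10 genes (69.2 to 100%), with 7 at Sin3a, 4 at Ctbp2, 3 at Ezh2 and 2 at Ctbp1. Sin3a is a scaffold of histone deacetylase complexes, the CtBP proteins bind Zeb factors, and Ezh2 methylates histone H3. The upstream TGF-beta genes had them at 9 of 9 (66.4 to 100%), with 7 at Tgfb1, 5 at Smad7, the inhibitory Smad, and 3 each at Tgfb3 and Tgfbr1.

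Among 10 other microRNAs of epithelial state or EMT, 2 had a window within 1 kb of the hairpin (20%, 2.52 to 55.6%), against the 9.84% of all microRNA genes. They were Mir203, with 2, and Mir205, with 1, both microRNAs of epithelia. Mir34a, Mir34b, Mir34c and Mir183 were the first without one, and the nearest window centre to the Mir183 hairpin was 3613 bp away. In this list 8 of 10 had at least 1 window within 20 kb, against 43.3% of all microRNA genes. The median was 3.5, above the 0 of all microRNA genes and below the 7 to 11 of the miR-200 genes. The 10 are not independent observations, because some, such as Mir34b and Mir34c, lie in 1 cluster.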

How the data were processed

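Single-cell Pi-ATAC libraries of mouse mammary tumours (per the labels, 768 wells stained for EpCAM and HIF1α and 192 for EpCAM and CD45) were processed by the authors, who mapped reads to mm9 with Bowtie2 2.1.0, removed duplicates with Picard 1.79 and called summits on aggregated cells with MACS2, whose version is not given in the sources used here. The submitters' processing notes also name hg19. The authors deposited the window positions only, a genome coordinate per window edge with no score, count or coverage, so the depth per sample and its precision are unknown. All windows spanned 500 bp. By the study's methods, in most datasets only the 50000 windows with the lowest MACS2 q-values were kept, the number in this list. Windows were joined to GENCODE M1 genes on NCBIM37 (mm9), chromosomes 1 to 19 and X, with Python 3.11.15, counting any overlap with the gene plus 20 kb or with 1 kb around a start site. A window's summit was taken as its centre. Sequence was read from the same build, and microRNA sequences from RefSeq. Exact binomial intervals came from SciPy 1.17.1. With 1 pooled list, no test was run. Members and lists were chosen with earlier results of these data known. All 10 members are named, and from each list up to 4 genes with the most start-site windows and the first 4 without one. Of the 90 listed symbols, 89 matched the annotation directly and 1 (Patj) through a RefSeq synonym. Counting was tested on simulated windows. Alternatives were other flanks, start distances, start definitions and a stricter list of called peaks with at least 2 kept windows, and host transcript starts for the microRNA genes, which were chosen after seeing the data.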

Additional observations from a re-analysis of the deposited data

How the results depend on the processing

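Counts depended most on the flank and on how many windows of a called peak were required. A flank of 50 kb gave 56 windows around the 10 genes in place of 28, and keeping called peaks with 2 or more kept windows left 13. At 50 kb Snai1 had 11 windows, Zeb1 3, each gene of the Mir200b cluster 15 and each of the Mir200c cluster 24, while Snai2, Zeb2 and Twist1 stayed at 2, 1 and 0. That stricter list holds fewer windows by construction, and under it 2 of 10 genes (Mir200c and Mir141) kept a start-site window, with 22.1% of protein-coding and 2.98% of microRNA genes as background. It also lowered the other EMT transcription factors to 5, mesenchymal genes to 2, corepressors and modifiers to 6 and other microRNAs to 1. The last list was also at 1 with a distance of 500 bp or with the window centre within 1 kb. The E-box share was 14.3% for ACAGGTG alone and 17.9% for CAGGTGT alone (all windows, 9.05% and 9.77%), both subsets of the CAGGTG matches by construction. The other 38 of 49 alternatives stayed within 1.5 times the count or inside the interval, among them 8 genes with a start-site window at 2 kb, where Mir429 joins, and 8 with host transcript starts. Some of these 38 were still drops under the stricter list. There the epithelial genes that EMT factors repress went from 15 to 10. The epithelial factors that oppose EMT factors went from 9 to 7 and the upstream TGF-beta genes from 9 to 6. No paired analysis was possible because the data are 1 pooled list and no result comes from a test. The unknown depth and the cut at 50000 windows limit every absence. A region outside the kept windows may be accessible below the authors' limit.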
